A study of Mus musculus with 6 samples.

Results

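The I-BAR proteins are a small family that couples the actin cytoskeleton to the plasma membrane. Their genes in the mouse are Mtss1, Mtss2 (formerly Mtss1l), Baiap2, Baiap2l1 and Baiap2l2, and all 5 were measured here, among 30142 named genes. The family was chosen because Mtss1 was already known from these data to differ between genotypes, and it was read together with 1 unnamed row of the table, TC1500001586.mm.1, whose identifier is the next after that of the Mtss1 probe set and which was also picked with its values known. Each gene was read through its probe set (the probes that the array summarises into 1 value), and each of the 5 genes had a single one.

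An I-BAR domain, also called an inverse BAR or IMD domain, is a bundle of helices that binds phosphoinositides in the membrane and bends it outward, whereas other BAR domains mostly bend it inward. The proteins thereby take part in filopodia, lamellipodia and membrane ruffles. MTSS1 and MTSS2 carry a WH2 motif that binds actin monomers, and the BAIAP2 group carries an SH3 domain that recruits actin regulators downstream of the small GTPases Cdc42 and Rac1.

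RNA was profiled on Affymetrix arrays in mouse acute myeloid leukemia cells made by retroviral transfer of MLL-AF9, a fusion oncogene, from a vector (MSCV-MLL-AF9-IRES-GFP) that also carries green fluorescent protein (GFP). Of 6 arrays, 3 held Ppara-/- and 3 held Ppara+/+ leukemia, each from GFP-positive bone marrow cells sorted out of secondary recipient mice. Ppara encodes a nuclear receptor for fatty acids, and per the series design the mice of both genotypes were Jackson Laboratory mice that underwent 10 generations of backcrossing. Both groups carry MLL-AF9, so they differ in label only by Ppara. The labels give neither the age of the animals nor say if each replicate is an animal or a primary leukemia of its own, so p-values measure only the spread between these 6 samples, which may be technical.

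Values are deposited log2 signals, so a difference of 1 is a doubling of signal. The negative-control probe sets, which measure background, had medians of 4.63 to 5.16 per array and 95th percentiles of 7.91 to 8.23, with the highest medians on Ppara+/+ replicate 1 (5.16) and Ppara-/- replicate 2 (4.99). Ppara itself lay near the controls in both genotypes (5.19 ± 0.12 in Ppara-/- and 5.08 ± 0.18 in Ppara+/+, mean ± SD, n = 3), and the part of the gene its probes match is not known, so it does not check the labels. Myeloid leukemia markers were bright, 9 of 11 measured ones lying above the 95th percentile of the negative controls on all 6 arrays, among them the leukocyte antigen Ptprc (difference -0.08) and the integrin Itgam (0.06). Of the 11 differences 5 were positive and 6 negative, with a median of -0.02. None of these markers was called by limma, against 0.126% of all genes. Over all genes 5.78% had an unadjusted p under 0.05 and 8.78% did not overlap between genotypes. Among the 4379 genes with a mean signal above 7.91 these shares were 12.4% and 11.7%. Of the 11 markers 2 had an unadjusted p under 0.05 and did not overlap between genotypes. These were the progenitor receptor Kit (8.32 ± 0.20 in Ppara-/- and 7.78 ± 0.29 in Ppara+/+; limma adjusted p = 0.546) and, named after its values were seen, the G-CSF receptor gene Csf3r (10.12 ± 0.07 in Ppara-/- and 9.75 ± 0.12 in Ppara+/+; SD, n = 3; limma adjusted p = 0.47), so their higher signal went with that of Mtss1 and its part was not tested.

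Mtss1 had the higher signal in Ppara-/- leukemia. MTSS1, also called MIM or missing in metastasis, binds membrane, actin monomers, cortactin and the formin DAAM1. Its log2 signals were 8.19, 8.41 and 8.48 in the Ppara-/- samples, against 6.24, 6.06 and 6.25 in the Ppara+/+ samples. The 3 Ppara-/- values stood clear of the 3 Ppara+/+ values, with 1.94 between the nearest pair. The means were 8.36 ± 0.15 and 6.18 ± 0.11 (SD, n = 3 each), a difference of 2.18 or a signal ratio of 4.52. The Ppara-/- samples lay above the 95th percentile of the negative controls of their own array by 0.20 to 0.57, and the Ppara+/+ samples lay below it by 1.95 to 1.99 but 1.08 to 1.44 above the control median. Of the 30142 named genes, 3 had a larger increase. These values chose the gene and are a description, so no test is given for them.

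The unnamed row was also higher in the Ppara-/- samples. It had signals of 6.72, 7.10 and 6.86 in the Ppara-/- samples, against 5.13, 4.97 and 5.25 in the Ppara+/+ samples, again without overlap. The means were 6.89 ± 0.19 and 5.12 ± 0.14 (SD, n = 3 each), a difference of 1.78 or a signal ratio of 3.43. In the Ppara+/+ samples it lay within 0.44 of the negative-control median of its own array, and in the Ppara-/- samples it lay 2.09 to 2.21 above it. It was under the 95th percentile of the negative controls on all 6 arrays, so the ratio is one of array signals, with the Ppara+/+ side at background, and may understate a change in RNA. Among 33206 unnamed rows, 11 had a larger increase. In both rows Ppara-/- replicate 1 was the lowest Ppara-/- sample, Ppara+/+ replicate 2 the lowest Ppara+/+ sample and Ppara+/+ replicate 3 the highest, whereas the highest Ppara-/- sample was replicate 3 for Mtss1 and replicate 2 for the unnamed row. For Mtss1 the highest Ppara+/+ sample rests on 6.25 against 6.24, and the Ppara+/+ values of the unnamed row are at background. Both rows were picked with their values known, so nothing is read from this order. Which transcript or strand the row measures is not known from the files, so it is given as a second array measurement and not as a second measurement of Mtss1.

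**Figure D1:**
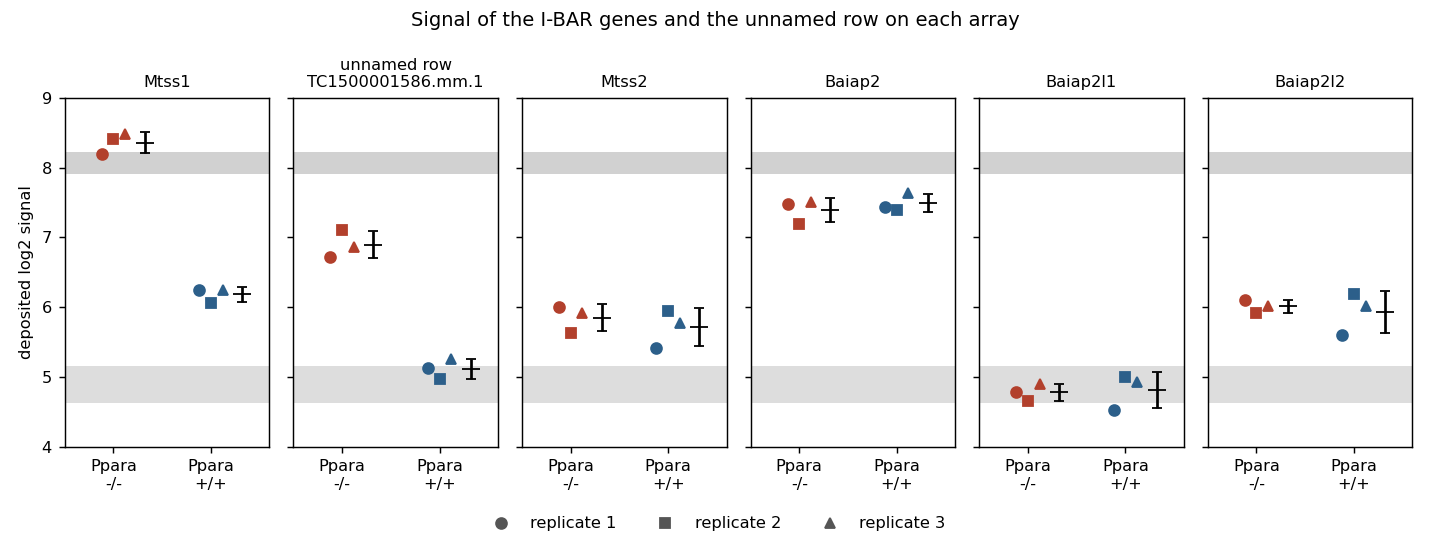
Deposited log2 signal (vertical axis) of Mtss1, the unnamed row and the other 4 I-BAR genes on each array, Ppara-/- in red and Ppara+/+ in blue, with 1 symbol per replicate and the mean ± SD (n = 3) in black. The dark band spans the 95th percentiles and the light band the medians of the negative controls over the 6 arrays, and the genotypes are apart only for Mtss1 (8.19 to 8.48 against 6.06 to 6.25) and the unnamed row (6.72 to 7.10 against 4.97 to 5.25).

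The nearest relative of Mtss1, Mtss2, which was named ABBA for its actin-bundling activity, showed no such separation. Its signals were 6.0, 5.63 and 5.91 in the Ppara-/- samples, against 5.42, 5.95 and 5.78 in the Ppara+/+ samples, and the groups overlapped. The difference was 0.13 (SE 0.16, 95% interval -0.23 to 0.49; limma adjusted p = 0.997).

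Baiap2 encodes IRSp53, the best studied effector of the family, which binds active Cdc42 and Rac1 and recruits the WAVE2 complex, EPS8 and the Ena/VASP proteins to the membrane. Baiap2 had 7.48, 7.19 and 7.51 in the Ppara-/- samples, against 7.43, 7.40 and 7.64 in the Ppara+/+ samples. The highest value was a Ppara+/+ sample and the lowest a Ppara-/- sample, with overlap between them. The difference was -0.10 (SE 0.13, 95% interval -0.38 to 0.19; limma adjusted p = 0.997).

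Baiap2l1 encodes IRTKS, a relative of IRSp53 that is a substrate of the insulin receptor. It had 4.79, 4.65 and 4.90 in the Ppara-/- samples, against 4.52, 5.0 and 4.92 in the Ppara+/+ samples, values around the negative-control median (0.64 below to 0.33 above it on the same array). The difference was -0.03 (SE 0.14, 95% interval -0.36 to 0.30; limma adjusted p = 0.997). Baiap2l2 encodes Pinkbar, which is known from epithelial cell contacts and sensory hair cells and favours flat membrane sheets. It had 6.10, 5.92 and 6.02 in the Ppara-/- samples, against 5.6, 6.19 and 6.01 in the Ppara+/+ samples, where both the lowest and the highest value were Ppara+/+. The difference was 0.08 (SE 0.15, 95% interval -0.27 to 0.43; limma adjusted p = 0.997).

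The 4 relatives were not called. In the same fit 38 of the 30142 genes (0.126%) were called, 18 higher (0.0597%) and 20 lower (0.0664%), and the groups did not overlap in 8.78% of all genes. Mtss1 is 1 of the 38, and since it was chosen on this contrast, nothing is read from its place in that count. With 1 array left out, the count over all genes was 6 when it was Ppara-/- replicate 1, 17 for either of the other Ppara-/- arrays, 13 for Ppara+/+ replicate 3, 35 for Ppara+/+ replicate 2 and 38 for Ppara+/+ replicate 1. Without both arrays of high negative-control signal limma called 0 genes, Mtss1 included (2870 genes had an unadjusted p under 0.05). The Mtss1 difference stayed between 2.12 and 2.26 with each array left out in turn, and was 2.18 without those 2 arrays. All 4 relatives lay under the 95th percentile of the negative controls on every array, where a change in RNA can be compressed, so their intervals describe array signal and may understate a change in RNA.

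The genes next to Mtss1 on its chromosome were read in the order of the RefSeq gene table (assembly GRCm38.p6). Of the 5 nearest measured coding genes on each side 0 were called by limma (lowest adjusted p = 0.748). Over all genes 0.126% were called, and at that share 0 of 10 says little about the neighbours. An unadjusted p under 0.05 was found in 2 of 10, against 5.78% of all genes. The groups did not overlap in 2 of 10, against 8.78% of all genes. The differences of the 10 neighbours ran from -0.46 to 0.49, with a median of -0.12 and 7 of 10 negative, against a median of 0.02 over all genes. On one side stood Ndufb9, a subunit of respiratory complex I, with signals of 9.92, 9.87 and 9.34 in the Ppara-/- samples, against 10.22, 10.21 and 9.86 in the Ppara+/+ samples, and beyond it Tatdn1 (difference -0.15), Rnf139 (-0.06), Trmt12 (-0.23) and Tmem65 (-0.16). On the other stood Sqle, the squalene epoxidase of cholesterol synthesis, with 5.66, 5.84 and 5.71 in the Ppara-/- samples, against 5.74, 5.43 and 5.63 in the Ppara+/+ samples. Beyond Sqle came Washc5 (0.05), the DNA repair gene Nsmce2 (-0.46), Trib1 (0.49) and 4933412E24Rik (-0.08). Trib1, a pseudokinase that directs the degradation of C/EBPα in myeloid cells, had 8.66, 8.86 and 8.97 in the Ppara-/- samples, against 8.00, 8.09 and 8.93 in the Ppara+/+ samples, with overlap through Ppara+/+ replicate 3 (limma adjusted p = 0.914).

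**Figure D2:**
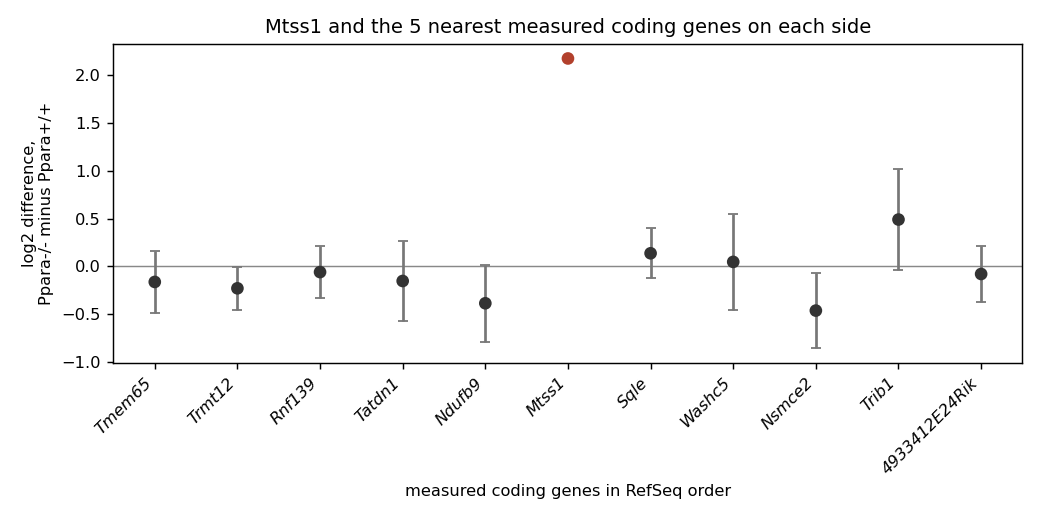
Log2 difference, Ppara-/- minus Ppara+/+ (vertical axis), of Mtss1 (red) and the 5 nearest measured coding genes on each side in RefSeq order (horizontal axis, not to scale), with the 95% interval of the fit for each neighbour. Mtss1 is at 2.18, and the neighbours lie between -0.46 and 0.49.

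Mtss1 and Baiap2l2 lie on the chromosome that also carries Ppara, with 284 measured coding genes between Mtss1 and Ppara and 104 between Baiap2l2 and Ppara. Without Mtss1, which was chosen on this contrast, 1 of the other 683 measured coding genes of that chromosome was called, Apobec3 (0.146%), against 30 of 19045 coding genes in all (0.158%). This share is over the whole chromosome and does not describe the part near Ppara, which was not tested apart.

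Partners and relatives of the family were then read from lists of 153 different genes, of which 140 had a probe set of their own. Of these 0 were called by limma (lowest adjusted p = 0.0893), against 0.126% of all genes. An unadjusted p under 0.05 was found in 26 (18.6%, against 5.78% of all genes). The groups did not overlap in 31 of the 140 (22.1%, against 8.78% of all genes). Of the 140 genes 60 had a mean signal above 7.91, and the shares were also read in these alone. The groups did not overlap in 14 of the 60 (23.3%), against 11.7% of the 4379 named genes above that level. An unadjusted p under 0.05 was found in 12 of the 60 (20.0%), against 12.4% of the 4379. The genes at or under that level were not read apart. The lists were chosen with earlier results of these data known, so these shares are a description. The median difference of the 140 genes was 0.02, as over all genes.

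Among direct partners of I-BAR proteins, 0 of 30 passed, 19 differences were positive and 11 negative, and the median was 0.05. The groups did not overlap in 8 of the 30, against 8.78% of all genes and 11.7% of those with a mean signal above 7.91. The gene nearest the threshold was Eps8l1, a relative of the IRSp53 partner EPS8, which caps and bundles actin. Eps8l1 had signals of 6.58, 6.26 and 6.76 in the Ppara-/- samples, against 5.22, 5.69 and 5.59 in the Ppara+/+ samples, without overlap and below the 95th percentile of the negative controls on every array. Its difference was 1.03 (SE 0.17, limma adjusted p = 0.0893). Eps8l1 passed with a trended and robust prior, with array weights and with the negative-control signal as a covariate (limma adjusted p = 0.0409, 0.00768 and 0.0293). Those settings called 70, 271 and 30 genes in all, against 38 in the main fit. Eps8 itself had 5.35, 5.46 and 5.30 in the Ppara-/- samples, against 4.84, 5.16 and 5.14 in the Ppara+/+ samples, a difference of 0.32 (limma adjusted p = 0.747). In the other direction stood the formin Diaph3, which elongates unbranched filaments, with a difference of -0.68 (SE 0.17; limma adjusted p = 0.303). The Ena/VASP family member Evl, which promotes filament growth at membranes, had one of -0.35 (SE 0.13; limma adjusted p = 0.748). For both, all Ppara-/- values lay below all Ppara+/+ values.

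In the WAVE complex, which relays Rac1 to the Arp2/3 complex, 0 of 10 measured genes passed (median 0.00). The groups did not overlap in 3 of the 10, against 8.78% of all genes and 11.7% of those with a mean signal above 7.91. Wasf2, the gene of WAVE2, had 8.98, 9.08 and 8.97 in the Ppara-/- samples, against 9.42, 9.18 and 9.27 in the Ppara+/+ samples, a difference of -0.28 without overlap (limma adjusted p = 0.763). The complex subunits Brk1 (-0.24) and Abi2 (-0.32) also did not overlap, and Abi1 (-0.21) did. In the Arp2/3 complex, which nucleates branched filaments, 0 of 6 measured genes passed, and the differences ran from -0.18 (Actr3) to 0.10 (Arpc5l). Of 25 measured genes of filopodia and actin bundling 0 passed (median 0.01). The groups did not overlap in 5 of the 25, against the same 8.78% and 11.7%. Moesin, which links actin to membrane proteins and is encoded by Msn, had 10.17, 10.42 and 10.09 in the Ppara-/- samples, against 11.03, 10.50 and 10.89 in the Ppara+/+ samples (difference -0.58, SE 0.16; limma adjusted p = 0.409). Gelsolin, the filament-severing product of Gsn, had a difference of 0.52 (SE 0.18; limma adjusted p = 0.68), and the leukocyte genes Myo1f and Fmnl1 had differences of -0.25 and -0.29.

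Other BAR proteins, which mostly bend membrane the opposite way or bind other curvatures, went in both directions. Of 21 measured F-BAR genes 0 passed (12 positive, 9 negative, median 0.00). The groups did not overlap in 7 of the 21, against 8.78% of all genes and 11.7% of those with a mean signal above 7.91. Gas7 had 6.98, 6.83 and 7.03 in the Ppara-/- samples, against 7.96, 7.51 and 7.81 in the Ppara+/+ samples (difference -0.81, SE 0.13; limma adjusted p = 0.0963), without overlap. Srgap3 had a difference of -0.38, Fchsd2 one of -0.40, and Trip10, the Cdc42 effector CIP4, one of 0.37. Of 40 measured N-BAR and other BAR genes 0 passed (21 positive, 19 negative, median 0.02). The groups did not overlap in 9 of the 40, against the same 8.78% and 11.7%. Arhgef37, an exchange factor with a BAR domain, had 6.06, 5.65 and 6.68 in the Ppara-/- samples, against 7.52, 7.30 and 7.37 in the Ppara+/+ samples. Its difference of -1.27 (SE 0.23; limma adjusted p = 0.135) became -1.54 and passed without Ppara-/- replicate 3 (adjusted p = 0.0307). Sh3glb1, the gene of endophilin B1, had a difference of -1.0 (SE 0.26; limma adjusted p = 0.355). The Arf6 regulator Acap1 had one of 0.49 and the sorting nexin Snx33 one of 0.64. With array weights Gas7, Arhgef37, Acap1 and Snx33 passed as well (limma adjusted p = 0.0147, 0.0227, 0.0475 and 0.0177). That setting called 271 genes in all, against 38 in the main fit.

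MTSS1 is also known as a partner of GLI transcription factors, the effectors of Hedgehog signalling. Of 11 measured Hedgehog genes 0 passed by limma, 0 had an unadjusted p under 0.05, and every one lay under the 95th percentile of the negative controls on all 6 arrays. The differences ran from -0.09 to 0.16. Gli1, a target of the pathway, had 5.45, 5.25 and 5.64 in the Ppara-/- samples, against 5.01, 5.48 and 5.36 in the Ppara+/+ samples, and the receptor gene Ptch1 had a difference of 0.11, both with overlap. Gli2 had a difference of 0.10 and Gli3 one of 0.07.

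**Figure D3:**
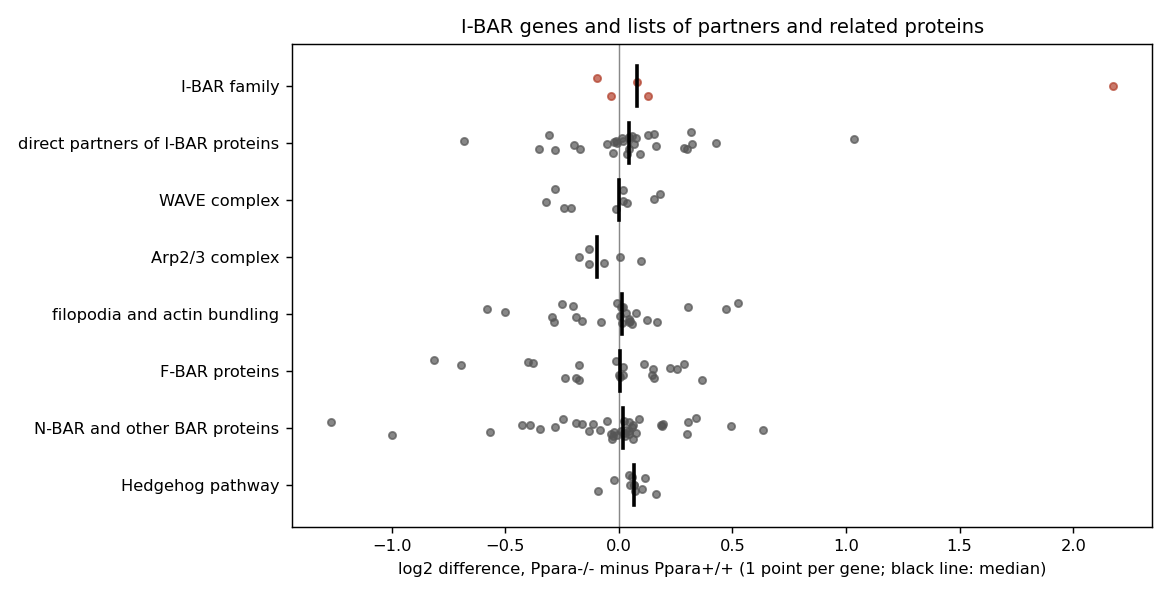
Log2 difference, Ppara-/- minus Ppara+/+ (horizontal axis), of each measured gene of the I-BAR family (red) and of the lists of partners and related proteins (grey), with the median of each list as a black line. Mtss1 stands at 2.18, and the points of the other lists run from -1.27 (Arhgef37) to 1.03 (Eps8l1).

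The sorted samples could hold other cells, whose markers were read as well. All 11 measured B cell, 11 T and NK cell, 7 erythroid and 9 megakaryocyte markers lay under the 95th percentile of the negative controls on all 6 arrays. None of these lists had a gene called by limma, against 0.126% of all genes. In this order 1, 0, 0 and 1 genes had an unadjusted p under 0.05, against 5.78% of all genes. The groups did not overlap in 2, 0, 0 and 1 genes, against 8.78% of all genes. Of 12 macrophage and dendritic cell markers 9 had a negative difference and 1, the adhesion molecule Vcam1, fell (5.93 ± 0.21 in Ppara-/- and 7.32 ± 0.32 in Ppara+/+; SD, n = 3; limma adjusted p = 0.0364). The macrophage antigen Adgre1 and the M-CSF receptor gene Csf1r had differences of -0.66 and -0.94 without overlap and did not pass (limma adjusted p = 0.312 and 0.361), and the median of the 12 was -0.10. The mean signal of that list was 5.70 to 5.91 over the Ppara-/- samples, against 5.98 to 6.21 over the Ppara+/+ samples, so a lower signal of some macrophage markers, these 3 above all, went with the higher Mtss1 signal, and its part in the Mtss1 difference was not tested. The mean of the 11 stromal and endothelial markers overlapped (4.99 to 5.15 in Ppara-/-, 5.0 to 5.22 in Ppara+/+), and 1 of them lay above the control level on all 6 arrays. None was called, and 1 had an unadjusted p under 0.05, Pdgfrb, a receptor of stromal cells named after its values were seen (5.71 ± 0.24 in Ppara-/- and 6.74 ± 0.21 in Ppara+/+; SD, n = 3; limma adjusted p = 0.0698). In such bulk samples fewer cells of a type and less RNA per cell cannot be told apart.

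The genes with the pattern most like that of Mtss1 were ranked by Pearson's r over the 6 arrays, as a description. The arrays fall into the 2 genotypes, so any gene with a clean step between them gets an r near 1 or -1. The gene most alike was Slc15a2, a peptide transporter (r = 0.997), with 6.45, 6.70 and 6.90 in the Ppara-/- samples, against 4.12, 4.21 and 4.36 in the Ppara+/+ samples. The unnamed row followed at r = 0.994, and 1 other unnamed row had a higher r. Next came Ncf4, a subunit of the phagocyte oxidase (r = 0.992), and Def6, an exchange factor for Rac1 and Cdc42 in blood cells (r = 0.9896). Def6 had 9.49, 9.51 and 9.48 in the Ppara-/- samples, against 9.27, 9.22 and 9.23 in the Ppara+/+ samples, a step of 0.25 that did not pass (limma adjusted p = 0.718). Ranbp17, Ttc41, Mt2, Hdac6, Tbc1d9b, Tmem181a and Krtap1-3 completed the list, with r down to 0.978 and steps of 0.22 to 1.82. Ranbp17 and Krtap1-3 lay below the negative-control median on all 6 arrays. Slc15a2 lay above that median only on the 3 Ppara-/- arrays and above the 95th percentile of the controls on 0. Ncf4, Def6, Tbc1d9b and Tmem181a lay above that percentile on all 6 arrays. The pattern most opposite to Mtss1 was that of Fcer1g, the signalling chain of Fc receptors (r = -0.997), with 10.54, 10.49 and 10.50 in the Ppara-/- samples, against 10.93, 10.96 and 10.97 in the Ppara+/+ samples. Apobec3, Bbs12, Naif1 and Slc44a4 followed, with r between -0.996 and -0.989. The other I-BAR genes had r between -0.35 (Baiap2) and 0.27 (Mtss2) with Mtss1.

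**Figure D4:**
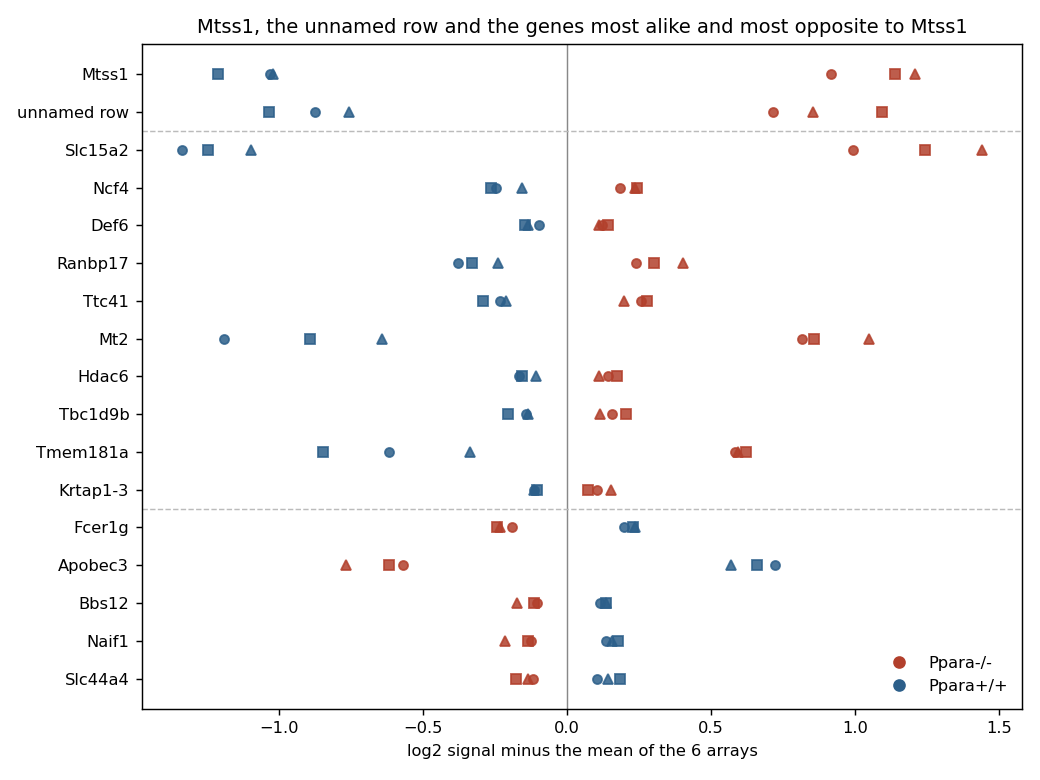
Log2 signal minus the mean of the 6 arrays (horizontal axis) for Mtss1, the unnamed row, the 10 named genes with the highest and the 5 with the most negative Pearson r with Mtss1, Ppara-/- samples in red and Ppara+/+ samples in blue (circle, square and triangle for replicates 1, 2 and 3). The steps differ widely in size at a similar r, from 0.22 for Krtap1-3, which lay below the negative-control median on all 6 arrays, to 2.45 for Slc15a2.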

How the data were processed

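Total RNA of 6 samples was measured on Affymetrix arrays, and the sample titles gave genotype and replicate. The authors deposited a log2 signal for each probe set and array, and per the submitters' processing notes the authors used RMA (background correction, quantile normalization and probe summary) and limma; their versions and the genome build are not given. Quantile normalization would remove a shift of most genes in 1 direction.

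Of 72688 rows, 30604 had exactly 1 gene symbol in a platform annotation table, 2146 had several, 33206 were unnamed and 6732 were controls. Older symbols were replaced by those of RefSeq with the same gene ID (827 rows). The row with the highest mean stood for each of 30142 genes. The genotypes were compared in R 4.3.3 by limma 3.58.1 (two-sided, lmFit then eBayes, without covariates); p-values were adjusted by Benjamini and Hochberg's method over every gene tested, and an adjusted p under 0.05 was called; SE and 95% intervals are from this fit, and the intervals are not adjusted for the number of genes. The fit was tested on simulated data. Python 3.11.15 with pandas 2.3.3 made the tables, and matplotlib 3.10.9 drew the figures.

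The members and lists were chosen with earlier results of these data known, and 1 list of regulators is not reported here. Named genes were the members, from each list the called genes or otherwise the 4 with the smallest p, 3 markers per cell type, the 5 neighbours of Mtss1 on each side, and the 10 genes most alike and 5 most opposite to Mtss1, without gene models, olfactory, vomeronasal and small RNA genes. Alternatives were another prior, other normalizations, a filter on dim genes, the mean of all rows, array weights, a block for the replicate number, arrays left out and a covariate. The number of arrays limits the precision. The labels do not say if samples of the same replicate number are paired, and the main fit treated them as unpaired.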

Additional observations from a re-analysis of the deposited data

How the results depend on the processing

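The Mtss1 difference lay between 2.09 and 2.26 in the 14 alternatives that held the gene (2.12 to 2.26 with 1 array left out), and a filter for genes above the negative-control level removed it, because its mean over the 6 arrays was lower. Another prior, the mean of all rows and the replicate block could not move the difference from 2.18. Mtss1 was chosen on this contrast, so the range is a description. The unnamed row lay between 1.67 and 1.86 in 7 alternatives, all of which left out 1 or 2 arrays. No alternative called another I-BAR gene (lowest adjusted p = 0.672, limma). The count of genes called by limma was 38, and it was 70 with a trended and robust prior, 23 after a repeated quantile normalization, 13 with medians centred, 1 among genes above the negative-control level, 271 with array weights and 6 to 38 with 1 array left out. It was 0 without the 2 arrays of highest negative-control signal (a fit with 2 residual degrees of freedom, where 2870 genes had an unadjusted p under 0.05). Of the partner and pathway genes 0 were called, and 1 with a trended and robust prior, 5 with array weights, 1 with the negative-control covariate and 0 to 1 with 1 array left out. With the replicate number as a block 12 genes were called. Deviations of same-numbered samples from their group means correlated across genes at -0.33, -0.47 and 0.11. Each mean is of only 3 arrays, and the 2 arrays of highest negative-control signal carry different numbers. These values therefore do not decide if same-numbered samples are paired. The causes of the changes in these counts were not tested. No neighbour of Mtss1 was called by limma in 15 alternatives.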
